A study of Mus musculus with 16 samples.

Results

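The 10 immediate early genes *Fos*, *Fosb*, *Jun*, *Junb*, *Egr1*, *Egr2*, *Egr3*, *Atf3*, *Ier2* and *Nr4a1* were followed in every mouse of the series, out of 55359 Ensembl genes in the deposited counts, of which 17406 passed the filter on low counts over all 16 mice. All 10 members were present and passed that filter. They were picked by name, with the high *Fos* of the no-UVB males already known, so that their levels and differences are a description. When first given, a count of members that pass a rule stands beside the share of all genes. Counts after a change of processing or without 1 mouse mostly lack that share. All these counts use the values that led to the choice and are not a test of the members. RNA came from whole dorsal skin of wild-type C57Bl/6N mice (C57Bl/6 in the labels) aged 8 weeks, at rest in the hair cycle (telogen). Male and female mice were exposed to UVB 3 times and skin was collected 6 h after the final exposure (day 5), while no-UVB mice of each sex served as controls, with 4 mice in each of the 4 groups. Every mouse thus shared genotype, age, skin site and hair cycle phase, and the groups differed in sex and UVB. The labels number the samples within a group and the study counts them as mice, which were each treated as 1 replicate.

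Immediate early genes are transcribed within minutes of a stimulus without the need for new protein. Growth factors, UV light and mechanical stress act through MAP kinases on factors already bound to these promoters, chiefly serum response factor with its ETS partners at CArG boxes and CREB at cAMP response elements (CRE). Most of the products are transcription factors, and their RNAs are short-lived, so that levels fall again soon after the stimulus ends. In skin, UVB induces this class of genes in keratinocytes, and AP-1, the dimer of Fos and Jun proteins, acts on genes of inflammation, proliferation and matrix breakdown.

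Promoter sequence was set beside the levels, because these genes are often treated as a single block under shared promoter elements. In the 400 bases upstream of the transcript start (GRCm39, GENCODE M39) on both strands, a CArG box was found in 4 of the 10 members, against 2.21% of 21751 protein-coding promoters. The core of the cAMP response element, TGACGT, was found in 7 of 10 against 8.23%. Its full form TGACGTCA, which contains the core in both directions, was found in *Ier2* alone among the members and in 1.87% of promoters. The AP-1 site TGANTCA was in none of the 10 windows and in 9.87% of all, the TATAAA box in 3 members and 19.2% of all, and the EGR site GCGNGGGCG in *Fosb* alone and in 5.13% of all. The stretches below were chosen because they hold the CArG boxes, CRE cores or TATAAA boxes of genes with unlike patterns in these mice, and capitals mark those motifs (ACGTCA is the core on the opposite strand).
Fos: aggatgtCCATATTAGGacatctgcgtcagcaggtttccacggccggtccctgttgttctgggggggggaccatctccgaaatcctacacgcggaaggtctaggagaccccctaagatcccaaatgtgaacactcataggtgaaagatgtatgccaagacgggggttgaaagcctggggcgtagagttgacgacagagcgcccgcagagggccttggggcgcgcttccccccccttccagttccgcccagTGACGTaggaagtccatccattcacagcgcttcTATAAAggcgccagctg
Fosb: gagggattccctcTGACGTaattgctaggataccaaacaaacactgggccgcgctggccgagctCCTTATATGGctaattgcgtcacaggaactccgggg
Egr2: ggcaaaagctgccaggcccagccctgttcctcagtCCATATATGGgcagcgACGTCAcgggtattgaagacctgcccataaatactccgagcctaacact
Ier2: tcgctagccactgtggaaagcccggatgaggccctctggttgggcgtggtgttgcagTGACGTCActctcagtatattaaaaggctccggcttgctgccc
Junb: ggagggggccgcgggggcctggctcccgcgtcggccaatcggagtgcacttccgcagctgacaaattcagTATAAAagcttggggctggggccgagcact
A CArG box and a CRE core at most 20 bases apart occurred in 9 of 21751 promoters (0.0414%), among them that of *Egr2*, where 6 bases lie between them and a further CArG box stands 368 to 359 bases upstream. The stretch of *Fos* runs from 310 to 11 bases before the transcript start at chr12:85520348-85520647 on the plus strand, with its CArG box 303 to 294 and its CRE core 60 to 55 bases upstream. That of *Fosb* lies at chr7:19044207-19044306 on the minus strand, 330 to 231 bases upstream. The last 100 bases before the start are shown for *Egr2* (chr10:67373592-67373691, plus), *Ier2* (chr8:85389484-85389583, minus) and *Junb* (chr8:85705348-85705447, minus). A match is a run of letters only, and no binding was measured. CArG boxes stood in promoters of both patterns described next.

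The 10 genes did not move as 1 block. The 6 genes *Fos*, *Fosb*, *Jun*, *Egr1*, *Atf3* and *Nr4a1* had their highest group median in no-UVB males, as did 27.6% of all genes tested. The other 4, *Junb*, *Egr2*, *Egr3* and *Ier2*, had theirs in a UVB group, and their means were higher after UVB than without it in both sexes. The share of all genes with this second pattern was not counted. Among the no-UVB males, replicates 1 and 2 had the highest levels of the first 6 genes. With both mice left out, 6 members still had their highest group median in no-UVB males. In 6 of the 10 members both of these mice lay above all other 14, as did 937 of 17406 genes (5.38%). These 6 were the same genes as the 6 above.

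**Figure D1:**
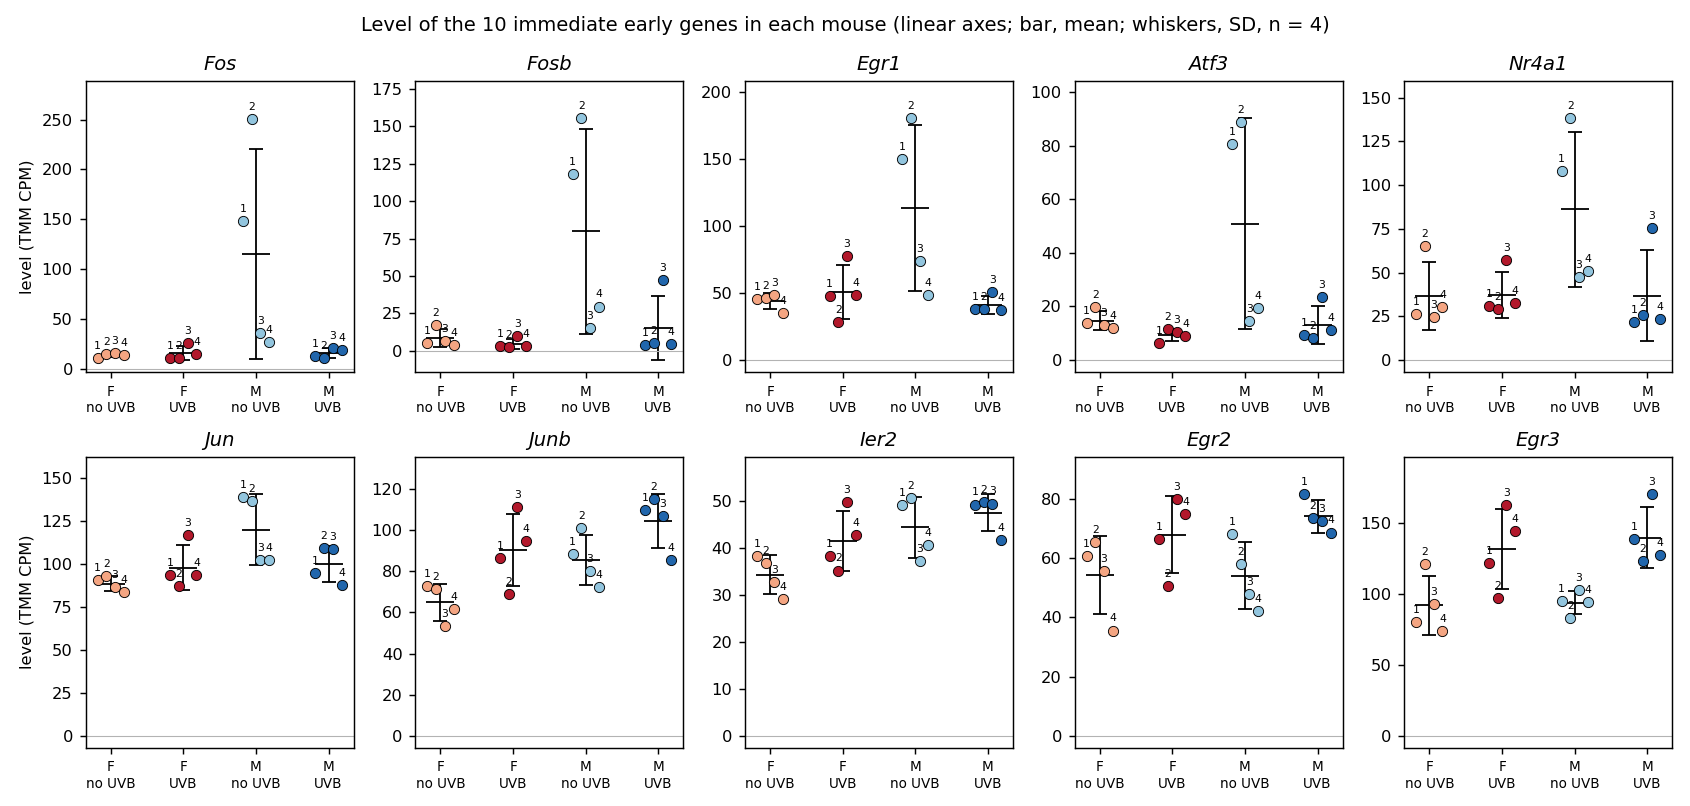
Level of each gene in each of the 16 mice, in CPM (reads on the gene scaled to the reads on all genes, after TMM), on a linear axis from 0 or below; dots are mice with their replicate number, bars are means and whiskers SD (n = 4), F females and M males. In *Fos*, no-UVB males 1 and 2 sit at 148 and 250 CPM, and the 12 mice of the other groups at or below 25.5.

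*Fos* (ENSMUSG00000021250.14, chr12:85520658-85524047) encodes the AP-1 subunit that pairs with Jun proteins. No-UVB males 1 to 4 had 148, 250, 35.8 and 27.2 CPM of *Fos* (reads scaled to library size), no-UVB females 11.0, 14.6, 16.2 and 14.1, UVB-irradiated males 12.5, 10.5, 21.0 and 18.5, and UVB-irradiated females 11.0, 11.1, 25.5 and 15.1. Each no-UVB male was above every mouse of the other 3 groups, which held for *Fos* alone among the members and for 3.4% of all genes, while the other 3 groups overlapped. The mean of *Fos* was 115 ± 106 CPM (SD, n = 4) in male controls, against 14 ± 2.17 in female controls, 15.6 ± 4.92 in irradiated males and 15.6 ± 6.82 in irradiated females. Within the no-UVB males, levels spread over a 9.20-fold range, against 1.47-fold in no-UVB females.

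*Fosb* (ENSMUSG00000003545.4, chr7:19036621-19043976), a Fos paralog and AP-1 subunit, had 118, 156, 15.1 and 29.5 CPM in no-UVB males 1 to 4. No-UVB females had 5.11, 17.3, 6.65 and 4.09 CPM, and UVB-irradiated females 2.93, 2.16, 9.47 and 3.12. UVB-irradiated males had 3.49, 5.30, 47.1 and 4.64 CPM. The ranges of no-UVB males and females overlapped, since no-UVB female 2 was above no-UVB male 3. UVB-irradiated male 3 was the highest outside the no-UVB males, and the next in its group was at 5.30.

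*Atf3* (ENSMUSG00000026628.14, chr1:190902493-190950241), a stress-induced ATF/CREB family factor, followed the same mice. Its levels were 80.9, 88.8, 14.5 and 19.4 CPM in no-UVB males 1 to 4, and 13.9, 19.9, 13 and 11.9 in no-UVB females. UVB-irradiated males had 9.37, 8.36, 23.5 and 11.4 CPM, and UVB-irradiated females 6.23, 11.4, 10.6 and 8.93. Replicates 3 and 4 of the no-UVB males lay within the range of the no-UVB females. *Atf3* was the only member for which every UVB-irradiated female was below every no-UVB female, a pattern shared by 9.88% of all genes, with means of 9.29 ± 2.29 against 14.7 ± 3.59 CPM (SD, n = 4).

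*Egr1* (ENSMUSG00000038418.8), a zinc finger factor induced by growth factors and injury, had 150, 181, 74.2 and 48.8 CPM in no-UVB males 1 to 4. No-UVB females had 45.5, 46.5, 48.8 and 35.1 CPM, UVB-irradiated males 37.8, 38.4, 50.8 and 37.2, and UVB-irradiated females 47.5, 28.6, 77.7 and 48.7. No-UVB male 4 was only just above the highest no-UVB female, and UVB-irradiated female 3 was above no-UVB males 3 and 4. *Nr4a1* (ENSMUSG00000023034.8, chr15:101151980-101172681), an orphan nuclear receptor, had 108, 138, 47.4 and 51.0 CPM in the no-UVB males and 26.2, 65.2, 24.7 and 30.4 in the no-UVB females. UVB-irradiated males had 21.7, 25.6, 75.6 and 23.6 CPM of *Nr4a1*, and UVB-irradiated females 30.9, 29.0, 57.0 and 32.4. A single mouse thus stood above its mates in each of the other 3 groups, by replicate number 2 in no-UVB females and 3 in both UVB groups.

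*Jun* (ENSMUSG00000052684.5, chr4:94937271-94940459), the main partner of Fos in AP-1, showed the same order with a small amplitude. Its levels were 139, 137, 102 and 102 CPM in no-UVB males 1 to 4 and 91.0, 93.3, 86.7 and 83.5 in no-UVB females, without overlap. UVB-irradiated males had 95.1, 109, 109 and 87.8 CPM, and UVB-irradiated females 93.6, 87.1, 117 and 93.7. Together with *Fos* and *Egr1*, *Jun* made up the 3 members for which every no-UVB male was above every no-UVB female, as in 7.8% of all genes.

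The other 4 members ran over narrower relative ranges than *Fos*, *Fosb*, *Egr1*, *Atf3* and *Nr4a1*, although all 4 were wider than that of *Jun*. *Junb* (ENSMUSG00000052837.8, chr8:85701113-85705359), an AP-1 subunit active in epidermis, had 88.4, 101, 80.4 and 72.5 CPM in no-UVB males 1 to 4, 110, 115, 107 and 85.5 in UVB-irradiated males, 72.9, 71.4, 53.6 and 61.9 in no-UVB females and 86.5, 69.0, 112 and 94.8 in UVB-irradiated females. *Ier2* (ENSMUSG00000053560.6, chr8:85387960-85389483), a nuclear protein of the early response, ranged from 29.1 to 50.6 CPM over all 16 mice. Its means were 34.2 ± 4.13 CPM in female controls, 41.5 ± 6.34 in irradiated females, 44.3 ± 6.56 in male controls and 47.5 ± 3.93 in irradiated males (SD, n = 4). All neighbours in this order overlapped. For *Junb* the UVB and no-UVB ranges overlapped in each sex.

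*Egr2* (ENSMUSG00000037868.16, chr10:67371305-67378018) and *Egr3* (ENSMUSG00000033730.5, chr14:70314350-70320063) are zinc finger paralogs of *Egr1*, and neither exceeded 2 times its median in the mice highest in *Egr1*, no-UVB males 1 and 2, although *Egr2* was higher in these than in replicates 3 and 4. *Egr2* had 68.1, 58.1, 48.0 and 42.3 CPM in male controls 1 to 4 and 81.7, 73.5, 72.7 and 68.7 in UVB-irradiated males. *Egr3* had 95.0, 83.2, 103 and 94.4 CPM in male controls and 139, 123, 170 and 127 in UVB-irradiated males. Both genes were higher in each UVB-irradiated male than in each no-UVB male, which also held for 21.9% of all genes, and *Fos* was the only member with the reverse order, which held for 23.5%. In females, *Egr2* was at 54.4 ± 13.2 CPM without UVB and 68.0 ± 12.9 after it, and *Egr3* at 91.9 ± 20.8 and 132 ± 28.2 (SD, n = 4). These ranges overlapped, and no member was higher in every UVB-irradiated female than in every no-UVB female, against 11% of all genes.

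Levels of different genes can be compared only per length. Divided by the length of the merged exons, the no-UVB female means ran from 27.8 ± 1.38 CPM per kb (SD, n = 4) for *Jun*, 27.3 ± 3.78 for *Junb*, 22.5 ± 2.71 for *Ier2*, 19.5 ± 4.42 for *Egr3* and 16 ± 3.86 for *Egr2* down to 9.78 ± 1.35 for *Egr1*, 6.02 ± 1.47 for *Atf3*, 5.93 ± 0.921 for *Fos*, 3.36 ± 1.76 for *Nr4a1* and 1.33 ± 0.979 for *Fosb*. The 5 members with the lowest control level per kb were thus the 5 that differed most between the no-UVB males. Among male controls, the mean of *Fos* was 49.0 ± 44.8 CPM per kb, above the mean of every other member, with an SD nearly as large as its mean. The counts behind these levels ran from 164 to 5440 reads per mouse for *Fos* and from 57 to 3385 for *Fosb*. The share of reads on the opposite strand was at most 0.698% in 9 members and 4.86% in *Junb*, and that strand was not counted.

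**Figure D2:**
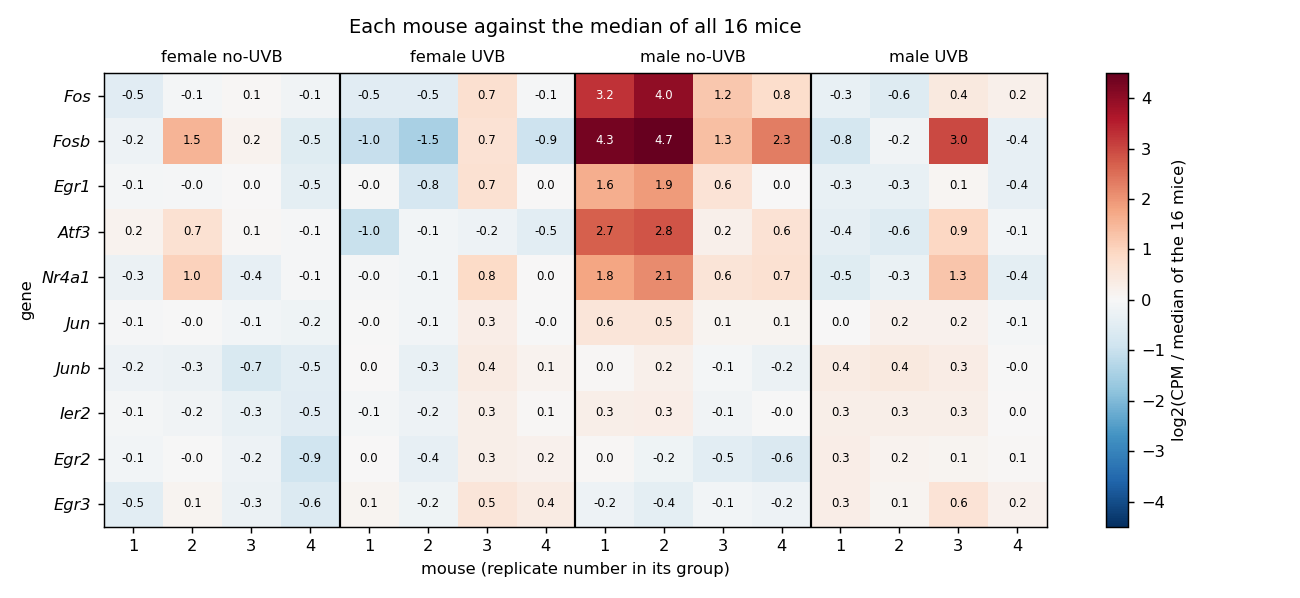
Log2 ratio of the CPM of each gene (vertical axis) in each mouse (horizontal axis, replicate numbers within the 4 groups) to the median of that gene over the 16 mice; red is above and blue below the median. No-UVB males 1 and 2 are red in the upper genes, and single mice such as UVB-irradiated male 3 in *Fosb* and *Nr4a1* stand out from their groups.

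A mouse was called high in a gene when its level exceeded 2 times the median of the 16 mice. No-UVB males 1 and 2 were each high in 5 of the 10 members, *Fos*, *Fosb*, *Egr1*, *Atf3* and *Nr4a1*, whereas 1.90% and 2.03% of all genes were that high in them. No-UVB male 3 was high in 2 members (1.13% of all genes) and no-UVB male 4 in 1 (1.24%). UVB-irradiated male 3 and no-UVB female 2 were each high in 2 members (1.97% and 1.37% of all genes). The other 10 mice were high in none, with 0.724 to 3.53% of all genes that high in them. No-UVB males 1 and 2 had 6.32 times the mean *Fos* of replicates 3 and 4, 6.14 times the *Fosb*, 5.0 times the *Atf3*, 2.69 times the *Egr1*, 2.50 times the *Nr4a1* and 1.35 times the *Jun*. For *Junb*, *Ier2* and *Egr2* the ratio lay between 1.24 and 1.40, and for *Egr3* it was 0.905. These mice were singled out by their levels, so that the ratios are a description.

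Across the 16 mice, log2 CPM of the 6 genes correlated with a median Pearson r of 0.84 (0.74 to 0.94 over 15 pairs), and those of the other 4 with a median of 0.72 (0.55 to 0.91 over 6 pairs). Between both sets the median over 24 pairs was 0.16 (−0.35 to 0.76). For deviations from the group means, the median was 0.76 within the 6, 0.61 within the 4 and 0.50 between them (0.11 to 0.88), with *Jun* and *Ier2* the closest pair across the sets, so that within groups the sets were less distinct. Without no-UVB males 1 and 2, the median within the 6 was 0.58, within the 4 it was 0.82, and between them 0.17. The 6 and the 4 were split by group medians of these same mice. Part of their contrast over the 16 mice therefore follows from that split. All points share libraries and groups, and these values describe the 16 mice.

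The UVB response of the males, which the study set out to compare with that of the females, was next taken for each member. In males the fitted log2 difference, UVB minus no UVB, was −2.87 (SE 0.81) for *Fos*, −2.40 (SE 1.16) for *Fosb*, −1.94 (SE 0.73) for *Atf3*, −1.45 (SE 0.42) for *Egr1*, −1.22 (SE 0.57) for *Nr4a1* and −0.24 (SE 0.12) for *Jun*. It was above 0 for *Egr3* at 0.60 (SE 0.10), *Egr2* at 0.48 (SE 0.13), *Junb* at 0.31 (SE 0.12) and *Ier2* at 0.12 (SE 0.10). The signs split the members as the medians had, which follows in part from how the 6 were defined. The median over the members was −0.73, against −0.02 over all genes. *Fos*, *Egr1* and *Atf3* passed the rule used for a fall, an adjusted p under 0.1 and a log2 difference past 1 by edgeR's quasi-likelihood test, as did 3.31% of all genes. By DESeq2, 5 members passed it, beside 3.47% of all genes. Without no-UVB males 1 and 2, none of the members passed by edgeR (6.9% of all genes did), 6 had an unadjusted p under 0.05, as did 48% of all genes, and the differences were −0.99 for *Fos*, −0.54 for *Fosb*, −0.34 for *Atf3*, −0.56 for *Egr1*, −0.40 for *Nr4a1* and −0.0034 for *Jun*, while *Egr2* was at 0.74, *Egr3* at 0.53 and *Junb* at 0.48.

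In the females, the fitted difference was 0.17 (SE 0.26) for *Fos*, −0.90 (SE 0.55) for *Fosb*, −0.65 (SE 0.21) for *Atf3*, 0.21 (SE 0.25) for *Egr1*, 0.04 (SE 0.33) for *Nr4a1* and 0.15 (SE 0.09) for *Jun*. It was 0.53 (SE 0.18) for *Egr3*, 0.49 (SE 0.15) for *Junb*, 0.33 (SE 0.19) for *Egr2* and 0.28 (SE 0.12) for *Ier2*. No member passed the rule by edgeR or by DESeq2, 4 had an unadjusted p under 0.05 by edgeR (as did 30.3% of all genes), and 2.71% of all genes passed in either direction. In both sexes, then, *Egr2*, *Egr3*, *Junb* and *Ier2* were higher and *Fosb* and *Atf3* lower after UVB, while *Fos*, *Egr1*, *Nr4a1* and *Jun* had opposite signs, that of *Jun* in males resting on no-UVB males 1 and 2. In females the sign of *Nr4a1* turned with upper quartile scaling (−0.01), and leaving out 1 mouse gave −0.17 to 0.30 for *Fos* and −0.08 to 0.40 for *Egr1*.

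**Figure D3:**
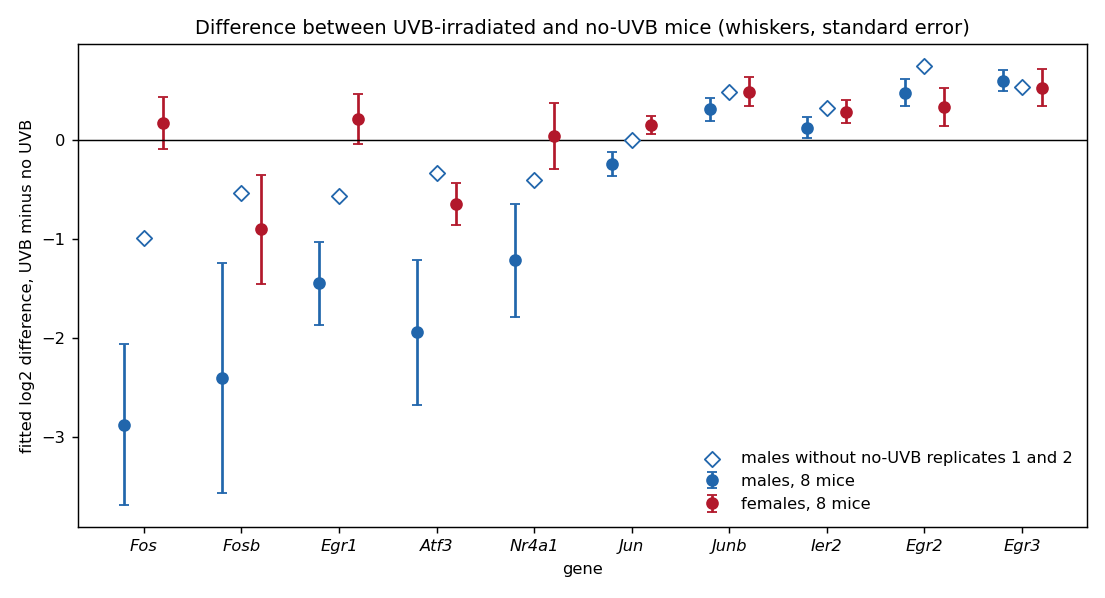
Fitted log2 difference between UVB-irradiated and no-UVB mice for each gene, in males (blue circles) and females (red circles), 8 mice each, with whiskers of 1 standard error; open diamonds are males without no-UVB replicates 1 and 2. *Fos* moves from −2.87 to −0.99 when both are left out, and *Egr3* from 0.60 to 0.53.

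The difference between the responses, male minus female, was −3.05 (SE 0.83) for *Fos*, −1.67 (SE 0.50) for *Egr1*, −1.50 (SE 1.35) for *Fosb*, −1.31 (SE 0.74) for *Atf3* and −1.27 (SE 0.68) for *Nr4a1*. *Fos* and *Egr1* passed an adjusted p under 0.1, the rule for this comparison, as did 4.25% of all genes in that direction. No member passed when any 1 of no-UVB females 1, 2 and 3, UVB-irradiated males 1 and 2 and no-UVB males 1 and 2 was left out. Without both no-UVB males 1 and 2 none of the members passed by edgeR (0.992% of all genes did), 1 had an unadjusted p under 0.05, as did 13.3% of all genes, and the difference was −1.18 for *Fos*, −0.79 for *Egr1*, −0.46 for *Nr4a1*, 0.35 for *Fosb* and 0.28 for *Atf3*. For *Jun* it was −0.41 over all mice and −0.18 without those 2 males, and for *Egr3*, *Egr2*, *Ier2* and *Junb* it lay between −0.19 and 0.14 over all mice.

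Without UVB, males minus females, the fitted difference was 3.25 (SE 0.94) for *Fosb*, 3.04 (SE 0.60) for *Fos*, 1.79 (SE 0.52) for *Atf3*, 1.37 (SE 0.35) for *Egr1*, 1.23 (SE 0.48) for *Nr4a1* and 0.44 (SE 0.11) for *Jun*. *Junb* was at 0.40 (SE 0.14), *Ier2* at 0.37 (SE 0.12), *Egr3* at 0.03 (SE 0.16) and *Egr2* at −0.01 (SE 0.18). These are the levels known at the choice of the members, and nothing is read from the count of 6 members that passed as higher in males with an adjusted p under 0.1 as the rule, beside 7.21% of all genes, and 1 without no-UVB males 1 and 2 (4.67% of all genes in both directions), where *Fos* was at 1.18, *Fosb* at 1.41, *Egr1* at 0.49 and *Atf3* at 0.20. The count was 3 without no-UVB female 3, no-UVB female 4 or no-UVB male 1, and 2 without no-UVB male 2. After UVB, *Fos* differed by −0.01 (SE 0.59) and *Egr1* by −0.30 (SE 0.35) between the sexes. *Fosb* differed by 1.76 (SE 1.0) over all mice and by −0.01 without UVB-irradiated male 3. After UVB no member passed by edgeR or DESeq2 and none had an unadjusted p under 0.05 by edgeR, against 25.2% and 32% of all genes. No-UVB males enter 3 of these comparisons, which therefore share the same 2 mice.

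Because whole skin was sequenced, fewer cells of a type and less RNA per cell cannot be told apart. All markers of 9 skin cell types exceeded 1 CPM in every mouse, so that none of those fixed for the labelled tissue was absent. Summed levels of 6 fibroblast markers were 59554 to 65424 CPM in no-UVB males and 9236 to 27648 in the other mice, and those of 6 skeletal muscle markers 15326 to 20505 against 9282 to 14620. Within the no-UVB males, replicates 1 to 4 had fibroblast sums of 65424, 64733, 61555 and 59554 CPM. Their keratinocyte sums were 11581, 9714, 15058 and 13440 CPM, and their skeletal muscle sums 18122, 20505, 15326 and 18110 CPM. Keratinocyte markers summed to 23462 to 32815 CPM in UVB-irradiated males and 8477 to 17348 elsewhere. Reads on genes numbered 16495776 to 33404831 per mouse, and mitochondrial genes took 2.19 to 3.12% of them. The part of these shifts in the results was not tested.

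Genes that act with the members were taken from 6 lists of 102 non-member genes, of which 99 were tested. Among the AP-1 partners and small Maf factors, *Fosl1* (Fra-1, a Fos family subunit) rose after UVB in both sexes. Male means went from 2.29 ± 0.889 to 7.39 ± 1.57 CPM, and female means from 1.39 ± 0.336 to 3.34 ± 1.49 (SD, n = 4), with log2 differences of 1.73 (adjusted p = 1.64e-04, edgeR) and 1.28 (adjusted p = 0.027). The call in females was lost when reads were counted without regard to strand (1.02, adjusted p = 0.154). *Fosl1* was also higher in irradiated males than in irradiated females by 1.15 (adjusted p = 0.0144), and *Batf3*, a basic leucine zipper partner of Jun proteins, was lower by 0.94 on the log2 scale (adjusted p = 0.00251). *Fos* was at 10.5 to 21.0 CPM in UVB-irradiated males and 11.0 to 25.5 in UVB-irradiated females, against 11.0 to 16.2 in no-UVB females. In each UVB group the mouse highest in *Fosl1*, male 3 (9.50 CPM) and female 3 (4.89 CPM), was also the highest in *Fos*.

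Some of the genes that shut the response down were high in the same mice as *Fos*. Of the 22 feedback inhibitors and mRNA decay factors, 4 fell after UVB in males (7.39% of all genes passed in either direction), and 4 were higher and 1 lower in males than in females without UVB (11.8%). *Dusp1*, a phosphatase that inactivates MAP kinases, had 262, 353, 94.5 and 95.4 CPM in no-UVB males 1 to 4 and 35.1 to 81.8 in the other 12 mice. In males after UVB it fell by 2.13 on the log2 scale (adjusted p = 0.0105), by 1.03 without no-UVB males 1 and 2 (adjusted p = 7.71e-04), and was higher in males without UVB by 1.58 (adjusted p = 0.0166). *Errfi1*, an inhibitor of the EGF receptor, had 427, 521, 91.7 and 118 CPM in the same males and 59.4 to 156 elsewhere. Its fall after UVB in males of −1.79 (adjusted p = 0.045) was lost without no-UVB male 1 (−1.54, adjusted p = 0.104), no-UVB male 2 (−1.33, adjusted p = 0.113) or UVB-irradiated male 2 (−1.70, adjusted p = 0.103), and was −0.31 without both no-UVB males 1 and 2. Its excess over females without UVB of 1.45 (adjusted p = 0.075) became −0.01 (adjusted p = 0.99) when no-UVB males 1 and 2 were both left out, and that of *Dusp1* became 0.50 (adjusted p = 0.273).

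In the list of other early response regulators, 3 of 19 genes tested fell after UVB in males (3.31% of all genes), *Klf2*, *Npas4* and *Cebpd*. *Klf2*, a Krüppel-like factor of endothelium and lymphocytes, had 97.7, 104, 48.7 and 58.9 CPM in male controls and 22 to 28.6 in irradiated males, a fall of 1.60 on the log2 scale (adjusted p = 0.00146), and of 1.06 without no-UVB males 1 and 2 (adjusted p = 1.28e-04). *Npas4* also passed (−1.59, adjusted p = 0.0182), at a level below 1 CPM in every mouse.

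Among secreted and surface targets, 5 of 18 genes tested rose and 4 fell after UVB in males (7.39% of all genes in either direction). *Ccn2*, a matricellular protein, fell by 1.58 on the log2 scale (adjusted p = 0.00937), and no longer passed without no-UVB males 1 and 2, where the difference of −0.83 was not past 1 (adjusted p = 0.0115). *Timp1*, an inhibitor of metalloproteinases, and *Cxcl1*, a neutrophil chemokine, rose after UVB in both sexes, in males by 1.55 (adjusted p = 5.07e-06) and 1.17 (adjusted p = 0.0134) and in females by 1.27 (adjusted p = 0.00557) and 1.51 (adjusted p = 0.0205). *Mmp3*, a matrix metalloproteinase, was higher in males in every mouse, at 167 ± 27.3 against 44.6 ± 2.90 CPM without UVB (log2 difference 1.91, adjusted p = 4.37e-06) and 164 ± 24.6 against 68.9 ± 19.2 after it (1.24, adjusted p = 2.92e-04).

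Over all 6 lists, 6 genes rose and 11 fell after UVB in males (7.39% of all genes in either direction), and 6 rose and 5 fell without no-UVB males 1 and 2 (6.9%). In females 4 rose and 1 fell (2.71% of all genes in either direction). The median difference was −0.06 in males against −0.02 over all genes, and 0.02 in females against 0.00. The responses differed between the sexes in 6 genes, 2 upward and 4 downward (7% of all genes), which left 0 by edgeR without no-UVB males 1 and 2 (11 with an unadjusted p under 0.05, and 0.992% of all genes passed). Without UVB, 21 were higher and 3 lower in males (11.8% of all genes), with a median of 0.14 against 0.00 over all genes. Without the same mice, 6 of 101 were higher and 1 lower, beside 4.67% of all genes. After UVB, 12 of 99 were higher and 7 lower in males, beside 25.2% of all genes, and 10 and 10 with upper quartile scaling. Of the 18 upstream kinases and activating factors, 9 in males and 4 in females had an adjusted p under 0.1 for the UVB response, as did 59.6% and 23.4% of all genes, but none of these was past a log2 difference of 1. *Map2k4*, a kinase of the JNK arm, was at 0.82 (adjusted p = 4.06e-05) in males and 0.53 (adjusted p = 0.00425) in females after UVB. Between the sexes, *Map2k4* was higher in irradiated males by 0.37 (adjusted p = 0.016) and *Rps6ka5*, a kinase acting on CREB and histone H3, lower by 0.36 on the log2 scale (adjusted p = 0.0193), and *Map2k2*, a kinase of the ERK arm, was higher in males without UVB by 0.22 (adjusted p = 0.0221).

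**Figure D4:**
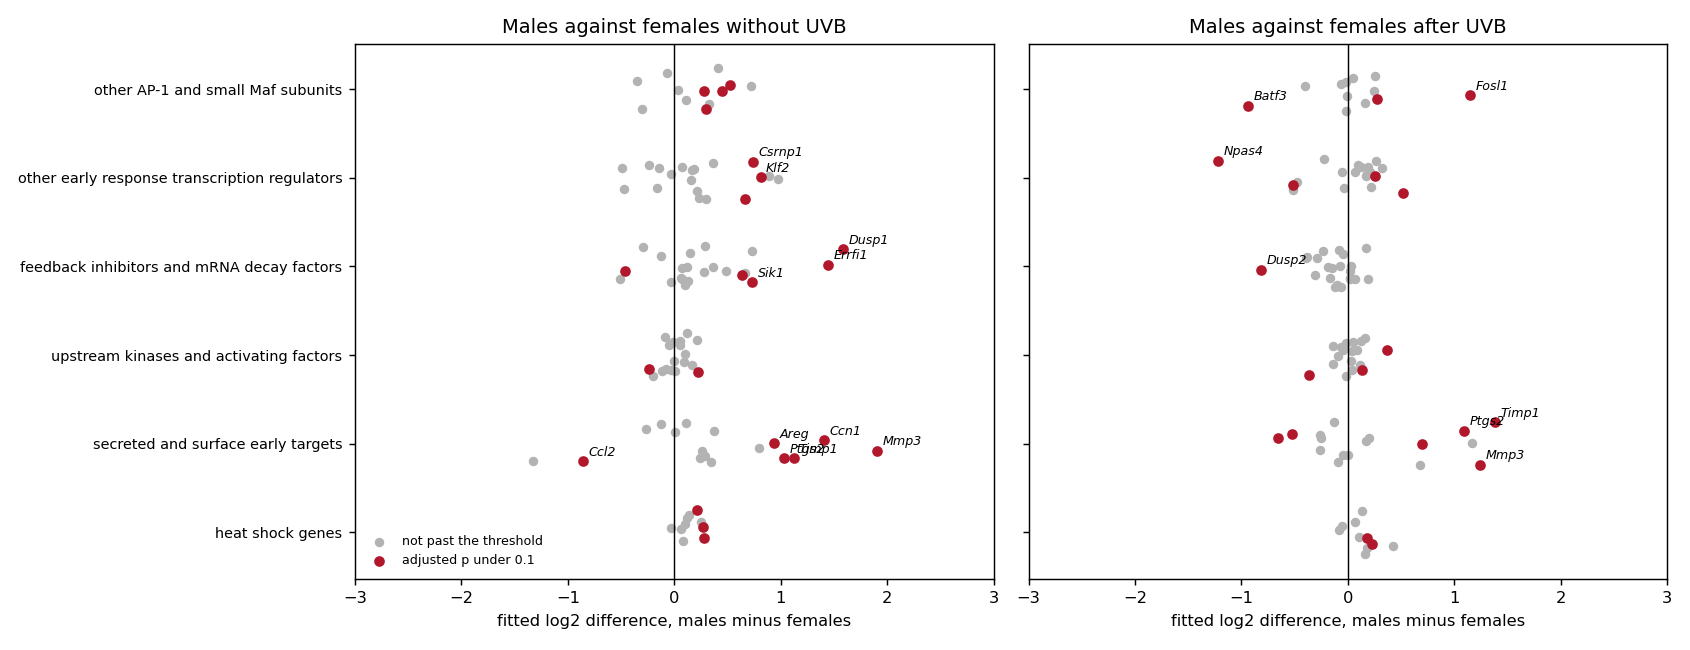
Fitted log2 difference, males minus females, of the genes tested from each of the 6 lists (vertical axis, with 1 gene left out), without UVB (left) and after UVB (right); red dots passed an adjusted p under 0.1 over all genes, and those past 0.7 are named. Of the red dots, those of *Dusp1*, *Errfi1* and *Mmp3* lie furthest to the right without UVB, and those of *Fosl1*, *Timp1* and *Mmp3* after it.

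Of the 102 genes of the 6 lists, 26 had both no-UVB males 1 and 2 above the other 14 mice, against 5.38% of all genes. They included 10 of 22 feedback inhibitors and mRNA decay factors, 6 of 20 early response regulators, 5 of 20 secreted and surface targets, 3 of 12 AP-1 and small Maf subunits and 2 of 18 kinases and activating factors. None of the 10 heat shock genes did, although 3 of them passed as higher in males than in females without UVB, as did 7.21% of all genes. Among the 3 were *Bag3*, a co-chaperone, higher by 0.27 (adjusted p = 0.0234) and *Hsph1*, a chaperone of the Hsp110 family, higher by 0.28 (adjusted p = 0.0811). The call of *Hsph1* held in 6 of the 16 fits without 1 mouse and was lost without no-UVB males 1 and 2 (0.25, adjusted p = 0.34). *Hspa1a*, an inducible heat shock protein gene, was at 40.9 ± 3.62 CPM in no-UVB males and 37.7 ± 5.98 in no-UVB females (SD, n = 4), and *Hspa1b* at 82.2 ± 12.6 and 84.0 ± 11.9. These paralogs are near-identical, and how reads were divided between them is uncertain. This comparison rests on mice picked for their levels and is a description.

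Among the genes whose log2 CPM most resembled *Fos* over the 16 mice, out of 14007 protein-coding genes with a mean of at least 1 CPM and with the members left out, the first 4 were *Dusp1* (Pearson r 0.94), *Csrnp1* (0.94), *Hspb8* (0.93) and *Ccn1* (0.93). Without no-UVB males 1 and 2, r was 0.68, 0.65, 0.89 and 0.62 in that order. *Hspb8*, a small heat shock protein gene outside the lists, was high in all no-UVB males, at 254, 260, 198 and 207 CPM against 120 to 167 elsewhere. The genes closest to the mean z score of the 10 members were *Nr4a3* (0.89), a paralog of *Nr4a1*, *Klf4* (0.88), *Crip2* (0.88), *Stk35* (0.87) and *Ets2* (0.86). All 16 points share the same libraries and groups.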

How the data were processed

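RNA of 16 whole dorsal skin samples was enriched for polyadenylated RNA and made into directional libraries. Per the labels, the authors aligned reads to GRCm39 with STAR, and the values they deposited are raw whole-number counts per gene, without normalization. The annotation release and the STAR version are not given in the sources used here. The count of the strand reported by the directional kit was used, and 4 summary lines per table (unmapped, multimapping, no feature, ambiguous; 8.30 to 13.7% of reads without a feature) stayed out. Names came from GENCODE M39, which holds 54749 of 55359 identifiers, and 610 kept their identifier. Reads on genes were 70.1 to 79.2% of each library.

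The members, gene lists and tests were chosen with earlier results of these data known. The study's methods name DESeq2, which served here as an alternative. Counts were filtered with filterByExpr, scaled by TMM and fitted with the quasi-likelihood test of edgeR 4.0.16 (limma 3.58.1, R 4.3.3), robust, in the 8 mice of each sex for the UVB response and in all 16 mice for the interaction and the sex differences. A gene passed at a Benjamini-Hochberg adjusted p under 0.1 over all genes tested and, for the UVB response, a log2 fold change past 1. P-values measure the spread between these samples. Named genes were the members, up to 2 genes passing per list and comparison with the largest change, and the 5 genes most correlated with *Fos* and with the members' mean z score (log2 CPM, prior count 2). *Cebpd*, *Hspa1a* and *Hspa1b* were named after their values were seen. A few items that these rules select are not reported here, and counts over lists include them.

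Alternatives were counts without regard to strand, DESeq2 size factors, upper quartile scaling, the Wald test of DESeq2 1.42.0, a filter of at least 1 count in all, the replicate number as a block and leaving out each mouse. The count of members that passed, and the fits without no-UVB males 1 and 2, were added after seeing the data. The procedure was tested on simulated data. Libraries of a group differed by more than sampling noise (chi-square per degree of freedom 10.4 to 109). Tables and plots were made with Python 3.11.15, pandas 2.3.3 and matplotlib 3.10.9. Promoter sequences were read from GRCm39 upstream of the start of the canonical GENCODE transcript.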

Additional observations from a re-analysis of the deposited data

Results flagged for a closer look

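Single mice far from the other 3 of their group were looked for in 34 of the named genes, in 136 groups of 4 mice, and chance alone marks about 1 in 20 such groups. There were 12, of which 7 were in members. UVB-irradiated male 3 stood apart in *Fosb* (47.1 CPM), *Egr1* (50.8 CPM) and *Nr4a1* (75.6 CPM), and UVB-irradiated female 3 in *Fosb* (9.47 CPM) and *Nr4a1* (57.0 CPM). No-UVB female 2 was far above its group in *Nr4a1* (65.2 CPM) and UVB-irradiated male 4 below its group in *Ier2* (41.6 CPM). The other 5 were *Ccn2* (26.4 CPM) and *Batf3* (6.63 CPM) in UVB-irradiated female 2, *Timp1* in no-UVB male 1 (3.96 CPM), and *Hspd1* in no-UVB female 3 (150 CPM) and UVB-irradiated male 4 (196 CPM). No-UVB males 1 and 2 are not among those marked high in the members, because 2 high mice shield each other in this check.

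The UVB response differed between the sexes, male minus female, by edgeR's interaction test over 16 mice in 4 listed genes that the naming rule picked because they passed it, so that their number is no result (7% of all genes passed). The members *Fos* and *Egr1* are described above. The log2 difference was −1.29 for *Klf2* (adjusted p = 0.0416), −1.98 for *Dusp1* (adjusted p = 0.0542), −0.54 for *Jdp2* (adjusted p = 0.0587) and 2.49 for *Mmp13* (adjusted p = 0.0841), the last at 0.468 to 1.2 CPM in the group means. Over the fits that left out 1 mouse, *Klf2* passed in 16 of 16, *Dusp1* in 13, *Jdp2* in 10 and *Mmp13* in 7. With every gene of at least 1 count in the fit, *Klf2* (−1.28, adjusted p = 0.108), *Dusp1* (−1.97, adjusted p = 0.139) and *Mmp13* (2.50, adjusted p = 0.152) no longer passed. *Dusp1* was lost without UVB-irradiated male 1 (−1.94), UVB-irradiated male 2 (−1.87) or no-UVB male 2 (−1.56). None of the 4 passed without no-UVB males 1 and 2, where the differences were −0.76, −0.89, −0.47 and 2.10 in the order given above.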

How the results depend on the processing

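Counts of listed genes that passed kept within 1.5 times of those reported, except as follows. For the interaction the count of 6 became 14 by DESeq2 and 2 with every gene of at least 1 count, and for the sexes without UVB 24 became 12 with every gene of at least 1 count. Without no-UVB males 1 and 2, a choice made after seeing the data, the counts became 11 in males, 0 for the interaction and 7 for the sexes without UVB. Members that passed in males numbered 5 by DESeq2 instead of 3, and for the interaction 0 with every gene of at least 1 count instead of 2. Without the same 2 males, 0 members passed in males and for the interaction, and 1 for the sexes without UVB. *Errfi1* turned to −0.013 between the sexes without UVB in that setting. The cause of the changes with tool and filter was not tested.

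Leaving out 1 mouse gave 13 to 19 listed genes in males, 4 to 7 in females, 1 to 15 for the interaction, 11 to 32 for the sexes without UVB and 11 to 23 after UVB. For the interaction the count was 1 without UVB-irradiated male 1 or 2 or no-UVB male 2, 2 without no-UVB male 1, 3 without UVB-irradiated female 1, 11 without no-UVB male 4 and 15 without no-UVB male 3. Between the sexes it was 12 without no-UVB male 1 and 11 without no-UVB male 2, and after UVB 11 without UVB-irradiated female 1. Members that passed numbered 2 to 5 in males, 0 to 1 in females, 0 to 3 for the interaction, 2 to 7 between the sexes without UVB and 0 to 1 after it. Genes with the highest median in no-UVB males numbered 6 to 6. Of the 5 genes most like *Fos*, 4 to 5 were retained, and of those most like the mean z score 3 to 5.

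Deviations of same-numbered mice correlated by −0.12 to 0.22 over 24 pairs of groups' replicates, 6 of them over 0.1. Such weak values cannot show whether the replicate numbers paired the mice. With the replicate number as a block, 1 member passed in males and 1 for the interaction, and the listed genes that passed numbered 14 in males, 4 in females, 8 for the interaction, 24 without UVB and 21 after it. The calls of *Errfi1* were lost under the block, for the fall in males (−1.41, adjusted p = 0.17) and between the sexes without UVB (1.36, adjusted p = 0.168). With 4 mice per group and a wide spread in no-UVB males, differences of the members in males are imprecise, and *Npas4* and *Mmp13* rest on few reads.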

Other observations

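Genes known to be induced by glucocorticoids were looked at after the values of no-UVB males 1 and 2 had been seen, as a list of 10 genes chosen afterwards. In 7 of the 10, both mice were above the other 14, as in 5.38% of all genes tested. *Tsc22d3* (GILZ, an anti-inflammatory leucine zipper protein) had 695, 749, 251 and 343 CPM in no-UVB males 1 to 4 and 108 to 321 in the other 12 mice. *Fkbp5*, a co-chaperone of the glucocorticoid receptor, had 234, 182, 80.8 and 96.2 CPM against 44.8 to 172. *Per1*, a clock gene, had 270, 289, 195 and 212 CPM against 88.1 to 159, so that all 4 no-UVB males were above the other mice. *Mt1*, a metallothionein gene, had 157, 191, 68.4 and 81.7 CPM against 42.4 to 91.3. *Zbtb16*, *Pdk4* and *Angptl4* were the 3 without this order, and *Angptl4* had 45.3, 48.8, 25.5 and 36.9 CPM in the no-UVB males against 23.0 to 175 elsewhere. These are values only, and what they have in common with the members' levels was not tested.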
